A study of Mus musculus with 6 samples.

Results

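The obstructed kidney of the wild type mouse was described here from 3 mRNA sequencing libraries, out of 6 samples that the series names. They were chosen by their label, wild type, and the 3 samples labelled Cd248 KO were not used. All 6 samples, and so all 3 used here, come from kidneys labelled as having undergone unilateral ureteral obstruction, in which the ureter of 1 kidney is tied off. No label gives the time after surgery, age, sex or strain. The labels' protocols speak of pooled RNA, and nothing states that the replicates came from separate animals. Whether the spread between them is technical, between animals or both is unknown and was not tested. There was 1 group and no non-obstructed kidney, so no comparison between groups was made, no test was run and every difference between libraries below is a description.

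Ureteral obstruction stops urine flow, stretches and injures the tubules, and draws in inflammatory cells. Fibroblasts and pericytes turn into contractile, matrix-secreting myofibroblasts, and the nephron loses its transport proteins while scar forms. Bulk RNA averages all of these cells, so a low level of a marker can mean fewer cells of a type or less RNA per cell, and the 2 cannot be told apart here.

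Levels are in FPKM, a unit that divides the fragments of a gene by transcript length and library size, so that genes can be ordered by level. Of 33679 genes in the table, 14707 (43.7%) had a mean of at least 1 FPKM, 4969 of at least 10, 250 of at least 100 and 23 of at least 1000. In single libraries between 14535 and 14820 genes reached 1 FPKM. Across these genes, Pearson's r of log2(FPKM + 1) was 0.970 for both pairs with replicate 1 and 0.974 for replicates 2 and 3, and Spearman's rho lay between 0.966 and 0.972. These coefficients run across genes, which are no independent replicates, and only describe the libraries. Read depth is unknown, because the table holds no counts. The Y-linked genes Ddx3y (15.6 to 17.2 FPKM) and Eif2s3y (15.0 to 18.1 FPKM) were present in every library and Xist was at 0.01 to 0.02 FPKM, the pattern of male tissue.

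The libraries stood apart from each other in their cell type markers. Replicate 2 held digestive enzyme transcripts of the pancreas, among them Ctrb1 (chymotrypsinogen B1) at 97.3 FPKM against a listed 0 in replicate 1 and 0.07 FPKM in replicate 3. Replicate 1 had the lowest proximal tubule and the highest neutrophil markers, and replicate 3 the highest proximal tubule and the lowest urothelium markers. Each of these patterns is given with its values below, and levels are given library by library where they differ. Gene lists and their members were chosen with earlier results of these data known. Shares of all genes given beside list counts are therefore a description and do not measure how unusual a list is.

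The most abundant transcripts came from the mitochondrial genome and from osteopontin. mt-Co1, a subunit of cytochrome c oxidase (mitochondrial genome, 5328 to 6872), was at 7045, 8741 and 9474 FPKM in replicates 1, 2 and 3. Spp1, which encodes the secreted, integrin-binding phosphoprotein osteopontin (ENSMUSG00000029304; mm10, chromosome 5, 104435118 to 104441050), was at 7505, 6884 and 6212 FPKM and was the highest nuclear gene in every library. It alone made up 2.48% ± 0.32 (SD, n = 3) of the FPKM total. The 10 highest genes held 16.2% ± 1.45 of the total, the 100 highest 36.2% ± 3.10 and the 1000 highest 58.6% ± 2.12. The 13 protein-coding genes of the mitochondrial genome held 12.6%, 15.2% and 16.9% in replicates 1, 2 and 3, lowest in replicate 1 for each of the 13. Their means ran from 672 FPKM for mt-Nd3 to 8420 FPKM for mt-Co1, and mt-Nd2 varied most, at 1456, 2067 and 2469 FPKM. These shares, and the levels and order of the genes with nuclear copies, are uncertain, because reads may be divided between a gene and its copy.

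A further 7 of the 30 highest genes were unprocessed pseudogenes in 1 block of chromosome 1 that copies part of the mitochondrial genome. Gm28661 (chromosome 1, 24614885 to 24615565) matched mt-Co2 over 681 bases with 100% identity and had a mean of 3640 FPKM against 3649 FPKM for mt-Co2. Gm10925, Gm28437, Gm10222 and Gm28439 also matched a mitochondrial gene at 100% identity, Gm29216 at 99.8% and Gm28438 at 99.7%. Reads of such copies cannot be told apart, so the levels of these pseudogenes are uncertain and may count mitochondrial reads again. The levels of the matched mitochondrial genes are uncertain too, and would be too low if reads were divided. The 7 copies held 5.44%, 6.36% and 7.16% of the FPKM total in replicates 1, 2 and 3. With mitochondrial genes and these copies left out, the 10 highest genes held 8.34% ± 0.76 (SD, n = 3) of the remaining total.

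**Figure D1:**
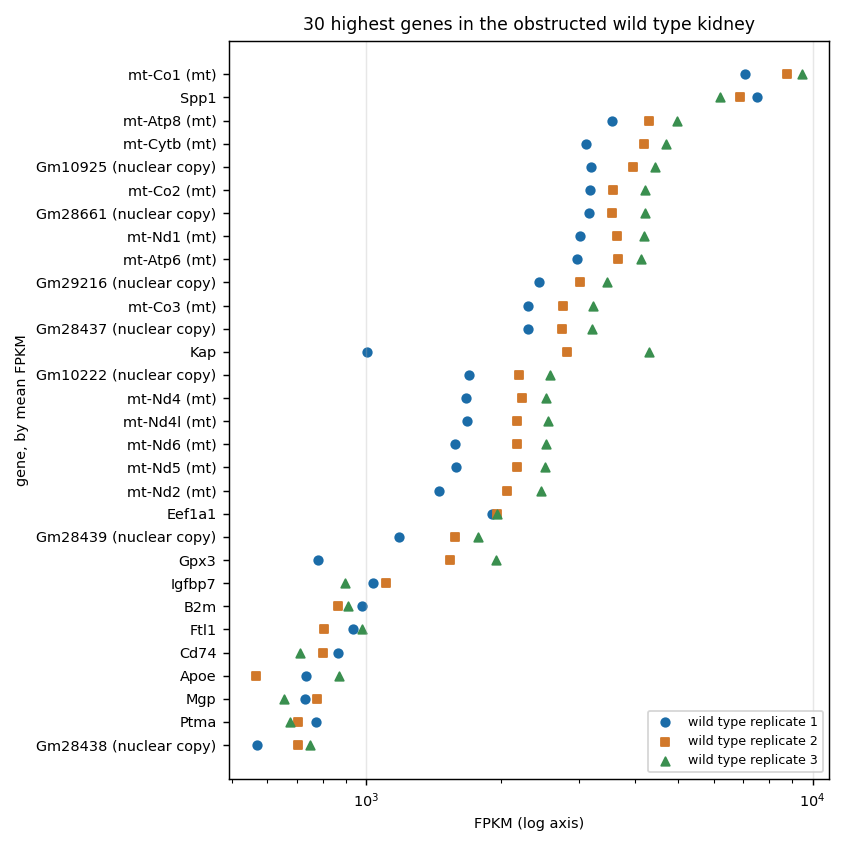
FPKM (log axis) of the 30 genes with the highest mean, 1 symbol per wild type library; mt marks genes of the mitochondrial genome and nuclear copy the pseudogenes that match them. Mitochondrial genes and their copies lie lowest in replicate 1 and highest in replicate 3, Spp1 lies the other way round, and Kap ranges from 1006 to 4294 FPKM.

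Of the 30 highest genes, 12 were mitochondrial, 7 were these copies and 11 were other nuclear genes, which besides Spp1 were of several kinds. Kap, the kidney androgen-regulated protein of the proximal tubule, was at 1006, 2820 and 4294 FPKM, and Gpx3, the secreted glutathione peroxidase made by the same tubule, at 781, 1543 and 1955 FPKM. Both were lowest in replicate 1 and highest in replicate 3. Eef1a1, a translation elongation factor, was at 1916, 1966 and 1962 FPKM and hardly differed between libraries (SD of log2(FPKM + 1), 0.02). Igfbp7, a secreted binding protein, had a mean of 1014 ± 106 FPKM (SD, n = 3), B2m, the light chain of MHC class I, 918 ± 57.8 FPKM, and Ftl1, the light chain of the iron store ferritin, 906 ± 89.5 FPKM. Cd74, the invariant chain of MHC class II, was at 792 ± 76.6 FPKM, Mgp, an inhibitor of calcification, at 719 ± 61.3 FPKM and Ptma (prothymosin alpha) at 715 ± 49.96 FPKM. Apoe, a lipid carrier that macrophages secrete, was at 732, 568 and 868 FPKM, lowest in replicate 2.

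Nephron markers were present for every segment, and their list medians depended on the members counted and on the library. The list median, taken over all members in the table, was 10.6 ± 1.92 FPKM (SD, n = 3) for 10 podocyte markers, 29.9 ± 18.4 FPKM for 25 proximal tubule markers and 8.54 ± 2.46 FPKM for 12 markers of the loop of Henle. It was 4.39 ± 0.80 FPKM for 7 distal tubule markers, 9.49 ± 1.97 FPKM for 12 markers of collecting duct principal cells and 12.1 ± 1.12 FPKM for 10 markers of intercalated cells. Apart from the proximal tubule, whose SD is wide, the medians of podocyte, loop, principal cell and intercalated cell markers lay within their spreads of a neighbour. In replicate 1 the proximal tubule median (12.2 FPKM) was below those of podocyte (12.9 FPKM) and intercalated cell markers (13.4 FPKM). All members of the podocyte, proximal tubule, loop and principal cell lists reached a mean of 1 FPKM, as did 6 of 7 distal and 8 of 10 intercalated cell markers, against 43.7% of all genes in the table. The exceptions were Fgf13, Slc4a1 and Hmx2. Without Fgf13 the distal tubule median was 8.43 FPKM.

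In the glomerulus, Podxl, the sialoprotein of podocyte foot processes, was the highest podocyte marker at 66.3, 46.6 and 43.3 FPKM. Synpo, an actin-binding protein of foot processes, was at 21.4, 20.3 and 17.6 FPKM. Both were highest in replicate 1 and lowest in replicate 3.

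All 25 proximal tubule markers were lowest in replicate 1 and highest in replicate 3, an order that 13.3% of all genes whose mean reached 1 FPKM had. The members were chosen with earlier results of these data known, so this share is no measure of how unusual the list is. Their list median was 12.2, 28.8 and 48.9 FPKM in replicates 1, 2 and 3. An SD above 1 was found for 11 of the 25, against 0.945% of all genes whose mean reached 1 FPKM. After Kap the highest were Slc27a2, which activates fatty acids, at 73.2, 137 and 191 FPKM, and Slc34a1, the sodium-phosphate cotransporter, at 32.8, 79.8 and 142 FPKM. Cyp2e1, a cytochrome P450, had the widest spread of the list, at 16.7, 78.0 and 127 FPKM (SD 1.49). Lrp2 (megalin), the endocytic receptor of the brush border, was at 9.91, 16.4 and 24.6 FPKM. Hnf4a, the transcription factor of proximal tubule identity, was at 28.1, 43.1 and 48.9 FPKM. Slc4a4, the basolateral bicarbonate transporter, varied least, at 18.9, 23.7 and 25.8 FPKM. The members thus shared a direction, and their sizes ran from that of Slc4a4 (SD 0.22) to that of Cyp2e1. The mitochondrial genome share and Ehhadh, a fatty acid oxidation gene of peroxisomes (11.8, 28.6 and 31.0 FPKM), were lowest in the same replicate 1. Their part in this pattern was not tested.

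Proximal tubule genes whose RefSeq promoter held the letters of a TATA box are shown because they belong to the list whose members shared 1 order across libraries. Each line gives the 60 bases before the transcription start in GRCm38.p6, the assembly also called mm10, with the letters TATAAA in capitals.
Kap, chr6:133853668-133853727, minus strand: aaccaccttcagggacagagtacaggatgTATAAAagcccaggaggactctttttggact
Cyp2e1, chr7:140763759-140763818, plus strand: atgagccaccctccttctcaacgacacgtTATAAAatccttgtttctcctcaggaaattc
Miox, chr15:89334413-89334472, plus strand: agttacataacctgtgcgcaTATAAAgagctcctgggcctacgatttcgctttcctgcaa
Acsm2, chr7:119554280-119554339, plus strand: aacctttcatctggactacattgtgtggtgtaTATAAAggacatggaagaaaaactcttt
In this window only the gene's own strand was searched. TATAAA lay in this window for 4 of the 21 proximal tubule markers that had a promoter in the table (19.0%) and for 3.44% of all 27025 genes. The motif and the window were chosen after 12 motifs had been searched on both strands of the 250 bases before the start, so these shares are a description of a choice made with matches in view. In that first search TATAAA was in 5 of 21 proximal tubule promoters (23.8%) against 14.3% of all, and CACCTG, an E-box, in 10 of 21 (47.6%) against 19.4%. TTTCCC was in 6 of 21 against 24.4%, TATAAAAG in 2 against 1.78% and the loosest of 4 HNF1 forms in 2 against 1.10%. The other 3 HNF1 forms, the direct repeat of the nuclear receptor half-site, the HNF4 form CAAAGTCCA (and TGGACTTTG, the same letters on the opposite strand) and the composite PTF1 form were in 0 of the 21. Several of these overlap, as TATAAAAG holds TATAAA. A match describes letters in a window and shows no binding. Miox, the first enzyme of inositol breakdown, was at 6.58, 28.8 and 55.6 FPKM, and Acsm2, a fatty acid CoA ligase, at 22.5, 45.8 and 74.0 FPKM.

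Distal to the proximal tubule, Umod (uromodulin; chromosome 7, 119462711 to 119479282), the secreted protein of the thick ascending limb, was at 340.4, 640.2 and 560.4 FPKM. It was followed by Slc12a1, the sodium-potassium-chloride cotransporter, at 26.2, 40.8 and 33.8 FPKM, and Kcnj1, the potassium channel ROMK, at 11.5, 14.0 and 10.1 FPKM. Of the 12 loop markers, 9 were highest in replicate 2 and 8 lowest in replicate 1, against 29.1% and 24.5% of all genes. Egf, a growth factor of this limb, varied most, at 1.07, 4.68 and 7.36 FPKM (SD 1.04). In the distal tubule Slc12a3, the thiazide-sensitive cotransporter, was at 18.7, 27.5 and 29.97 FPKM, Wnk1, a kinase that controls it, at 15.1, 15.2 and 14.9 FPKM and Trpv5, a calcium channel, at 10.6, 11.9 and 15.7 FPKM. Calb1 (calbindin) had the widest distal spread, at 1.91, 3.28 and 4.0 FPKM.

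In the collecting duct the keratins Krt8 (160.3, 153.7 and 110.1 FPKM) and Krt18 (89.6, 96.1 and 59.5 FPKM) led the principal cell list, though other epithelia make both. Hsd11b2, which shields the mineralocorticoid receptor from glucocorticoids, was at 41.1, 47.4 and 37.9 FPKM. The vasopressin-regulated water channel Aqp2 was at 3.93, 15.1 and 12.5 FPKM, low in replicate 1 and the most variable of the list (SD 0.92). Intercalated cell markers had a median SD of 0.11, near that of all genes. Car2 (carbonic anhydrase 2) was at 53.1, 55.2 and 59.6 FPKM, Aqp6 at 14.3, 16.6 and 15.8 FPKM and Atp6v1b1, a proton pump subunit, at 13.7, 14.1 and 12.0 FPKM. The widest was Atp6v1g3, another pump subunit, at 15.0, 12.1 and 10.3 FPKM.

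**Figure D2:**
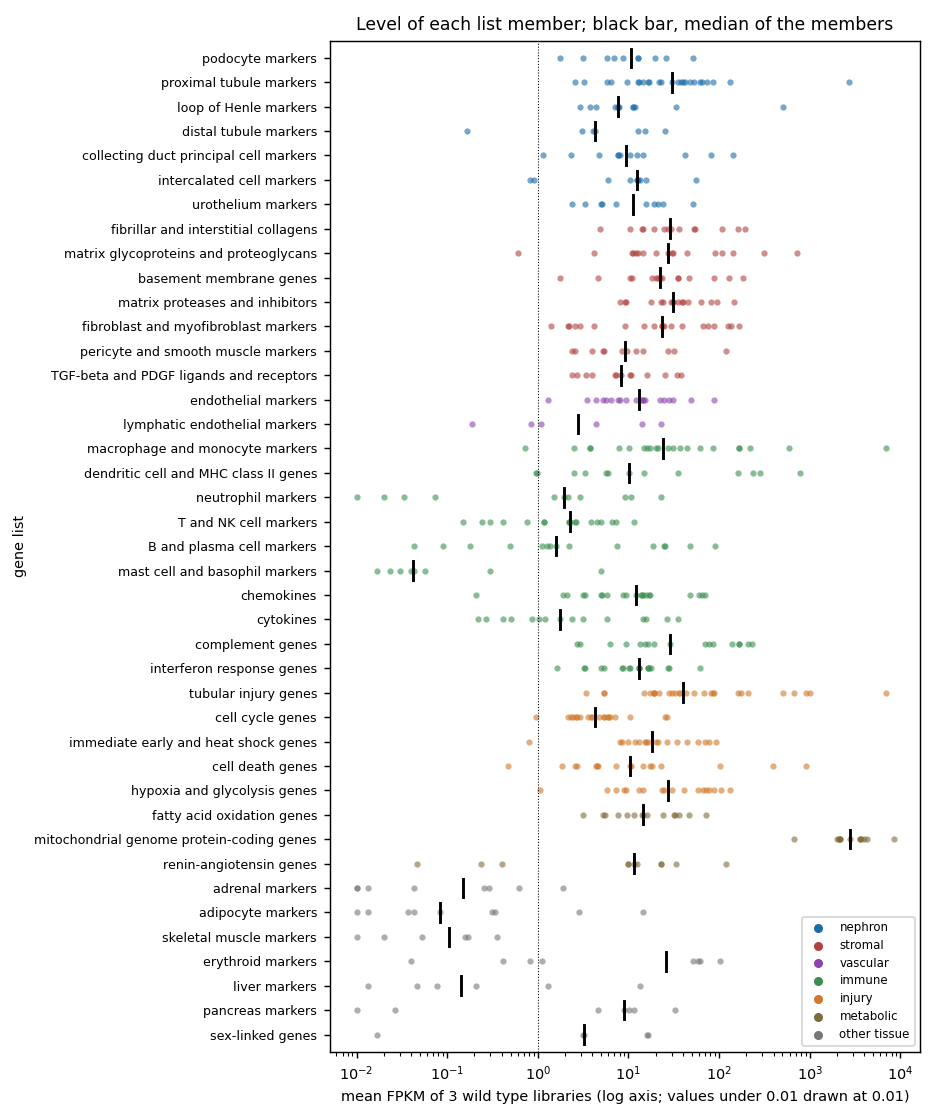
Mean FPKM (log axis) of each list member over the 3 wild type libraries, 1 row per list, with black bars at the median of the members and a dotted line at 1 FPKM. Matrix, tubular injury and complement lists lie above most nephron lists, while mast cell, skeletal muscle, adrenal and liver markers lie mostly under 1 FPKM.

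Stromal and matrix genes were abundant. The list median was 28.5 ± 1.79 FPKM (SD, n = 3) for 14 fibrillar and interstitial collagens, 25.7 ± 1.14 FPKM for 17 matrix glycoproteins and proteoglycans, 22.6 ± 3.46 FPKM for 15 basement membrane genes and 31.5 ± 4.35 FPKM for 17 matrix proteases and inhibitors. Spon2 was the only one of these genes under a mean of 1 FPKM. The median SD of log2(FPKM + 1) of the members was 0.16, 0.22, 0.16 and 0.26 in these 4 lists, above the 0.10 of all genes. Type III and type I collagen led, with Col3a1 at 173, 239 and 162 FPKM, Col1a1 (chromosome 11, 94936224 to 94953042) at 159.0, 170.4 and 160.4 FPKM and Col1a2 at 98.1, 118 and 106 FPKM. Col3a1 was high in replicate 2, while Col1a1 hardly differed between libraries. Col6a2, a chain of the beaded type VI collagen, had the widest spread of its list, at 12.1, 19.7 and 11.9 FPKM, and it too was highest in replicate 2. After Mgp, the calcium-binding matrix protein Sparc was at 325, 353 and 267 FPKM and Bgn (biglycan) at 144, 155 and 128 FPKM. Fn1 (fibronectin) was at 116, 97.4 and 107 FPKM. Lum (lumican) varied most among glycoproteins, at 7.29, 17.6 and 8.46 FPKM.

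In the basement membrane, the type IV collagen chains Col4a1 (186, 211 and 152 FPKM) and Col4a2 (130.1, 149.4 and 110.0 FPKM) led, followed by Col18a1 at 91.9, 96.4 and 77.8 FPKM. All 15 genes of that list were lowest in replicate 3, as were 48.3% of all genes whose mean reached 1 FPKM. The widest basement membrane spread, that of Col4a1, was an SD of 0.24. Among proteases and inhibitors, Plau (urokinase) was at 158, 149 and 133 FPKM, and the metalloproteinase inhibitors Timp3 and Timp2 at 76.8, 105 and 105 FPKM and at 76.6, 85.6 and 80.0 FPKM. Mmp9, a gelatinase that neutrophils and macrophages release, was the most variable of this list, at 17.4, 1.28 and 8.82 FPKM (SD 1.55), and 16 of the 17 members had an SD above the median of all genes.

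Fibroblast and myofibroblast markers had a list median of 23.6 ± 1.35 FPKM (SD, n = 3), and all 20 reached 1 FPKM. Ccn2, the gene of connective tissue growth factor, had levels of 146, 191 and 167 FPKM, Acta2 (smooth muscle actin; chromosome 19, 34241090 to 34255590) at 133, 145 and 130.3 FPKM and Tagln, an actin-binding protein, at 132, 136 and 112 FPKM. Cd248 (endosialin; chromosome 19, 5068078 to 5070682), the gene that the study deletes in its other group, was at 9.03, 9.57 and 8.78 FPKM. Its rank was 5402 of all genes, and its SD of 0.06 was below the median SD of 0.10. Dpt (dermatopontin) was the most variable of the list, at 9.42, 27.2 and 7.85 FPKM, high in replicate 2. Of 20 markers, 14 were highest in replicate 2, against 29.1% of all genes.

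Pericyte and smooth muscle markers had a list median of 9.04 ± 0.92 FPKM. The pericyte regulator Rgs5 was at 32.3, 35.3 and 27.4 FPKM and the adhesion molecule Mcam at 31.5, 27.3 and 23.7 FPKM. Ren1, which encodes renin, the protease that starts the angiotensin cascade (chromosome 1, 133350510 to 133360325), was at 227, 31.2 and 101 FPKM (SD 1.42) and had the largest SD of the 250 genes whose mean reached 100 FPKM. Other genes of that cascade differed less. Atp6ap2, the prorenin receptor, was at 34.6, 32.6 and 34.0 FPKM, Agt (angiotensinogen) at 22.9, 23.7 and 21.96 FPKM and Agtr1a, the main angiotensin receptor, at 11.5, 10.6 and 12.2 FPKM. TGF-beta and PDGF ligands and receptors had a list median of 8.26 ± 1.11 FPKM. Their receptors led, with Tgfbr2 at 37.8, 42.4 and 32.8 FPKM and Tgfbr1 at 35.0, 32.2 and 35.0 FPKM, followed by the ligand Pdgfb at 27.0, 28.0 and 21.8 FPKM. Tgfb1 was at 17.2, 15.5 and 15.5 FPKM, and Pdgfa was the widest at 12.7, 9.65 and 8.54 FPKM.

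Endothelial markers had a list median of 12.7 ± 1.32 FPKM (SD, n = 3), and all 20 reached 1 FPKM. Plvap, the diaphragm protein of fenestrated vessels, was at 77.5, 104 and 81.5 FPKM, Eng (endoglin) at 46.7, 55.2 and 43.3 FPKM and Plat, the tissue plasminogen activator, at 37.6, 34.6 and 21.3 FPKM with the widest spread (SD 0.43). Of the 20, 15 were highest in replicate 2 and 16 lowest in replicate 3, against 29.1% and 48.3% of all genes. Lymphatic markers had a median of 2.77 ± 0.58 FPKM over 6 members and of 9.24 FPKM over the 4 members of at least 1 FPKM. Pdpn (podoplanin), which podocytes also make, was at 26.8, 21.6 and 20.3 FPKM, the chemokine Ccl21a at 9.53, 18.9 and 13.7 FPKM and Flt4, the VEGF-C receptor, at 4.19, 5.13 and 3.99 FPKM.

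Among the lists of immune cell types, macrophage and monocyte markers had the highest median, followed by dendritic cell and MHC class II genes. The list median was 25.8 ± 6.18 FPKM (SD, n = 3) for 22 macrophage and monocyte markers and 10.1 ± 1.87 FPKM for 13 dendritic cell and MHC class II genes. It was lower for T and NK cells (2.28 ± 0.61 FPKM), neutrophils (1.93 ± 1.27 FPKM), B and plasma cells (1.64 ± 0.25 FPKM) and mast cells (0.037 ± 0.047 FPKM). Over members of at least 1 FPKM the medians were 2.79 FPKM for T and NK cells, 2.93 FPKM for neutrophils and 7.54 FPKM for B and plasma cells, so the order of these 3 lists depends on which members are counted. Spp1, which tubules make as well, heads the macrophage list. Lyz2, the lysozyme of macrophages and neutrophils, was at 634, 373 and 775 FPKM and Ctss (cathepsin S) at 255, 184 and 223 FPKM. The complement subunits C1qa and C1qb, made by macrophages, were at 188, 145 and 171 FPKM and at 186, 143 and 165 FPKM. Adgre1, the F4/80 antigen, was at 31.2, 23.1 and 28.0 FPKM.

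Arg1 (arginase 1; chromosome 10, 24915221 to 24927484), an enzyme of alternatively activated macrophages, was at 43.7, 1.57 and 18.6 FPKM. Its SD of 2.12 was the largest of any gene outside those seen in replicate 2 alone (at most 0.1 FPKM elsewhere). Gpnmb, a marker of lipid-laden macrophages, was at 3.03, 0.68 and 7.67 FPKM, lowest in the same library. Of the 21 macrophage markers with a mean of at least 1 FPKM, 17 were lowest in replicate 2 and 17 highest in replicate 1, against 27.1% and 49.2% of all genes. The class II genes H2-Eb1 (322, 283 and 243 FPKM) and H2-Ab1 (266, 232 and 214 FPKM) followed Cd74, and Clec9a, a receptor of cross-presenting dendritic cells, had the widest spread of its list at 3.94, 3.40 and 2.55 FPKM.

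Neutrophil markers were highest in replicate 1 and lowest in replicate 2 in all 7 members with a mean of at least 1 FPKM. That order held for 18.7% of all genes, though the list was chosen with earlier results of these data known. The alarmin subunits S100a9 (chromosome 3, 90692632 to 90695721) and S100a8 were at 39.8, 6.74 and 22.6 FPKM and at 20.5, 2.91 and 8.52 FPKM, and Csf3r, the G-CSF receptor, at 12.4, 5.14 and 10.2 FPKM. S100a8 was the most variable of the list (SD 1.23). The granule protein genes Camp and Mpo reached at most 0.22 FPKM in any library, and Elane, another, was listed at 0 in all 3. Ly6g, a surface antigen that defines mouse neutrophils, was listed at 0 in replicates 1 and 2 and was at 0.10 FPKM in replicate 3. Mmp9 and Arg1 shared the order of the neutrophil markers.

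T and NK cell genes were low, while the B and plasma cell list held both low and high members. Among T and NK cell markers the receptor chains Trbc2 (14.2, 9.93 and 10.4 FPKM), Trac (8.85, 7.05 and 6.23 FPKM) and Trbc1 (7.50, 7.17 and 5.30 FPKM) led, and Cd3e varied most, at 1.84, 1.0 and 0.70 FPKM. Of the 13 members with a mean of at least 1 FPKM, 12 were highest in replicate 1, as were 49.2% of all genes. Igkc, the kappa light chain, was at 119, 89.2 and 61.7 FPKM, and Xbp1, which tubules also make, at 49.3, 50.3 and 44.9 FPKM. Sdc1 (syndecan 1), an epithelial as well as a plasma cell protein, was at 32.1, 24.0 and 19.2 FPKM. Igha, the IgA heavy chain, had the widest spread, at 35.1, 25.1 and 13.7 FPKM. The B cell genes Ms4a1 and Pax5 stayed at or under 0.22 FPKM. Kit was the only mast cell list gene above 1 FPKM, at 5.90, 5.29 and 3.89 FPKM, and the mast cell proteases reached at most 0.11 FPKM in any library.

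Chemokines had a list median of 10.6 ± 0.92 FPKM (SD, n = 3). Cxcl14 was at 74.1, 88.5 and 45.6 FPKM, Cx3cl1 (fractalkine) at 62.6, 75.1 and 58.1 FPKM and Cxcl16 at 64.6, 59.2 and 56.6 FPKM. Ccl3, a macrophage chemokine, varied most, at 5.35, 0.93 and 3.74 FPKM. Cytokines were lower at 1.74 ± 0.74 FPKM, led by Il34, a ligand of the macrophage CSF1 receptor, at 38.5, 36.1 and 31.5 FPKM, the alarmin Il33 at 30.5, 27.6 and 22.6 FPKM and Csf1 at 17.3, 14.1 and 15.5 FPKM. Il6 had a mean of 1.03 FPKM and the widest spread of these, at 1.92, 0.86 and 0.31 FPKM. Complement genes had a median of 28.6 ± 3.83 FPKM, led by C3, the central component, at 244, 244 and 209 FPKM. Interferon response genes were among the steadier lists, at 12.2 ± 0.50 FPKM with a median SD of 0.11. That SD was near the 0.10 of all genes, and 12 of the 19 members lay above the median of all genes. Bst2 (tetherin) was at 65.8, 60.6 and 56.9 FPKM, Gbp2 at 28.7, 27.3 and 27.8 FPKM and Ifit3 at 24.1, 30.8 and 27.6 FPKM, while Rsad2 (viperin) was the widest at 11.5, 10.2 and 8.62 FPKM.

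Tubular injury genes had a list median of 41.8 ± 5.60 FPKM (SD, n = 3), and all 28 reached 1 FPKM. It was 46.0, 43.9 and 35.4 FPKM in replicates 1, 2 and 3, above the proximal tubule median in replicates 1 and 2 and below it in replicate 3. The list is not specific to injured tubules, as Spp1 also heads the macrophage list. With no non-obstructed kidney its median is a level and no measure of injury. After Spp1, Igfbp7 and B2m came Clu (clusterin), a secreted chaperone, at 719, 659 and 634 FPKM. Lcn2 (lipocalin 2; chromosome 2, 32384633 to 32388252), secreted by injured distal tubules, was at 178.2, 170.1 and 169.2 FPKM, with little difference between libraries (SD 0.04). Havcr1 (KIM-1; chromosome 11, 46735080 to 46779578), the surface receptor of injured proximal tubules, was at 189, 206 and 85.6 FPKM (SD 0.69), low in replicate 3, the library with the highest proximal tubule markers. Fgg, the fibrinogen gamma chain, was the widest of the list, at 17.3, 45.4 and 21.9 FPKM. Vcam1 was at 50.3, 42.5 and 36.5 FPKM and Sox9, a transcription factor of repairing tubules, at 6.29, 5.27 and 4.61 FPKM. Of the 28 genes, 21 were highest in replicate 1 and 20 lowest in replicate 3, where 49.2% and 48.3% of all genes were.

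Cell cycle genes had a list median of 4.45 ± 0.65 FPKM, led by Ccnd1 (cyclin D1) at 24.8, 25.9 and 29.9 FPKM, Pcna at 27.2, 24.8 and 23.5 FPKM and Mcm6 at 12.3, 10.04 and 9.29 FPKM. Plk1, a mitotic kinase, varied most at 5.10, 2.75 and 3.99 FPKM. Of 19 with a mean of at least 1 FPKM, 18 were highest in replicate 1, against 49.2% of all genes. Immediate early and heat shock genes had a median of 18.8 ± 3.94 FPKM, with Jund at 96.9, 98.5 and 83.1 FPKM, Hsp90aa1 at 83.9, 77.4 and 71.4 FPKM and Junb at 77.2, 75.6 and 58.2 FPKM. Hspa1a, an inducible heat shock protein with a near-identical neighbour, Hspa1b, was at 25.3, 11.9 and 9.68 FPKM and the widest of the list. Among cell death genes (10.2 ± 0.93 FPKM), Ftl1, Fth1 (345, 385 and 456 FPKM) and Gpx4, which guards against lipid peroxidation (88.0, 104 and 112 FPKM), were the highest, and the necroptosis kinase Ripk3 the most variable at 6.45, 4.06 and 3.50 FPKM. Hypoxia and glycolysis genes had a median of 28.0 ± 0.83 FPKM, led by Aldoa (128, 141 and 124 FPKM), Ldha (109, 111 and 96.7 FPKM) and Tpi1 (84.7, 91.3 and 87.7 FPKM). Hk2, a hexokinase, was the widest at 8.61, 4.24 and 4.74 FPKM. Fatty acid oxidation genes had a median of 14.8 ± 2.39 FPKM, with Acadl at 69.3, 75.2 and 70.4 FPKM and Acadm at 25.5, 39.2 and 44.3 FPKM, and 12 of 15 were lowest in replicate 1, against 24.5% of all genes.

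The spread between libraries was small for most genes. The SD of log2(FPKM + 1) had a median of 0.10 over the 14707 genes, a 5th percentile of 0.02 and a 95th percentile of 0.42. It exceeded 0.5 in 539 genes (3.66%) and 1 in 139 genes (0.945%). The median was 0.14 for genes from 1 to 2 FPKM, 0.09 for genes from 10 to 50 FPKM and 0.24 for the 23 genes of at least 1000 FPKM, most of which are mitochondrial or copies of mitochondrial genes. The ribosomal protein gene Rpl4 was the steadiest gene of at least 50 FPKM, at 313.1, 311.4 and 312.5 FPKM. It was followed by Tle5, a transcriptional corepressor, at 63.2, 63.3 and 62.9 FPKM, the pseudogene Rps7-ps3, Txn1 (thioredoxin, 140.7, 139.9 and 141.2 FPKM), Dazap2, Slc25a4, Laptm4a, Pcbp1, Kdelr1 and Rpl3, with SDs up to 0.014.

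**Figure D3:**
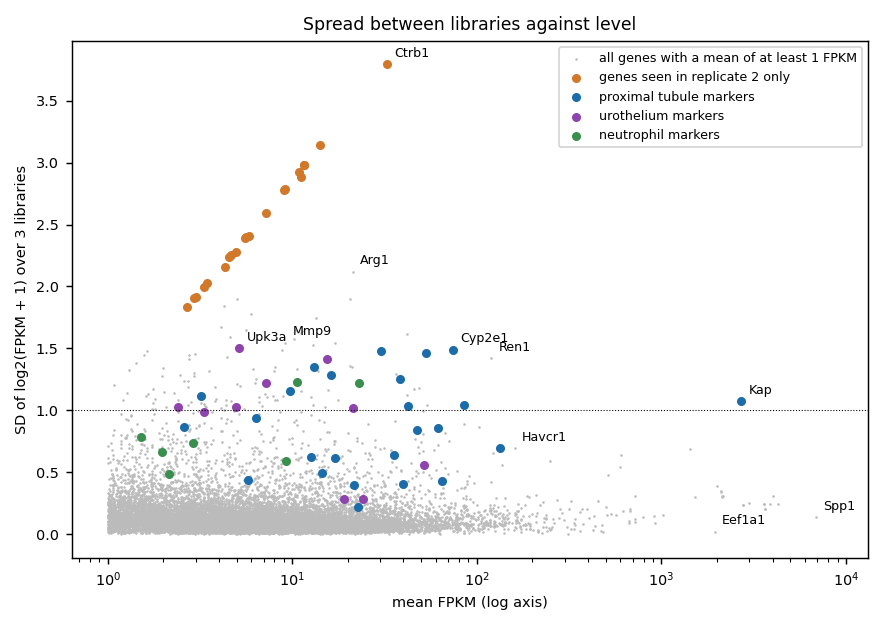
SD of log2(FPKM + 1) over the 3 wild type libraries against mean FPKM (log axis), 1 point per gene with a mean of at least 1 FPKM, with 4 gene groups in colour and a dotted line at an SD of 1. The genes called seen in replicate 2 alone (at most 0.1 FPKM elsewhere) form the upper edge up to Ctrb1 at 3.79. All 25 proximal tubule markers lie above the median SD of 0.10.

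The most variable genes were pancreatic. Of the 20 genes with the largest SD, 19 were digestive enzymes or other secreted proteins of the exocrine pancreas with their highest value in replicate 2, and the other was Arg1. Besides Ctrb1 (chromosome 8, 111686519 to 111691010; SD 3.79), they were the amylase genes Amy2a1 to Amy2a5, the trypsinogens Try4, Try5, Prss2 and 2210010C04Rik, the elastases Cela2a and Cela3b, the lipases and their cofactor Pnlip, Pnliprp1, Cel and Clps, the carboxypeptidase Cpa1, and Sycn and Reg1. The chymotrypsin-like elastase Cela2a was at 34.7 FPKM and pancreatic lipase, Pnlip, at 27.1 FPKM in replicate 2, and both were listed at 0 in replicates 1 and 3. Reads of the amylase copies cannot be told apart with certainty, and neither can those of the trypsinogens, so their single values are uncertain. By a rule set after these values were seen, 21 genes were at 5 FPKM or more in 1 library and at most 0.1 FPKM in the other libraries. They are called seen in replicate 2 alone, though some had traces elsewhere, because all 21 were high in replicate 2. They summed to 504 FPKM there, 0.180% of that library's total, and to 0.17 and 0.26 FPKM in replicates 1 and 3. Besides pancreatic genes the 21 held Cfd (adipsin), a complement protease of fat cells, at 8.06 FPKM and listed at 0 elsewhere. Of the 7 pancreas list genes in the table, 5 reached a mean of 1 FPKM. These 5 were highest in replicate 2, against 29.1% of all genes with such a mean. Ctrb1, Cela2a, Pnlip and Cpa1 reached that mean through replicate 2 alone. Cpa1 was at 14.0 FPKM there, and Cela1, which other tissues make too, was at 2.31, 24.7 and 3.81 FPKM. The trypsinogen Prss1 and the islet hormone gene Gcg stayed at or under 0.08 FPKM in every library. Among adipocyte markers, Adipoq (adiponectin) was at 0.04, 0.77 and 0.13 FPKM. Fabp4, which endothelium also makes, was at 13.7, 17.5 and 12.3 FPKM, and Lipe, a lipase, at 2.91, 2.88 and 2.66 FPKM, highest in replicate 1. The source of the pancreatic transcripts was not tested.

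A pair of these pancreatic promoters with the same letters is shown for comparison with those of the proximal tubule, again as the 60 bases before the RefSeq start in GRCm38.p6 with TATAAA in capitals.
Pnlip, chr19:58670305-58670364, plus strand: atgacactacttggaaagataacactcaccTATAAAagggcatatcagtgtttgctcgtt
Try4, chr6:41302212-41302271, plus strand: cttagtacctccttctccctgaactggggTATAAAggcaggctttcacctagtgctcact
TATAAA was in the window for 6 of 19 of the genes seen in replicate 2 alone that had a promoter in the table (31.6%), against 3.44% of all genes. In the first search over 250 bases the shares were 31.6% and 14.3%, with the same limit of a motif chosen after matches were seen. The set was itself picked on these levels, and its amylase and trypsinogen copies are not separate cases. Of the pancreas list, 4 of 7 promoters held the letters (57.1%), among them those of Prss1 and Gcg, which were not high in replicate 2.

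**Figure D4:**
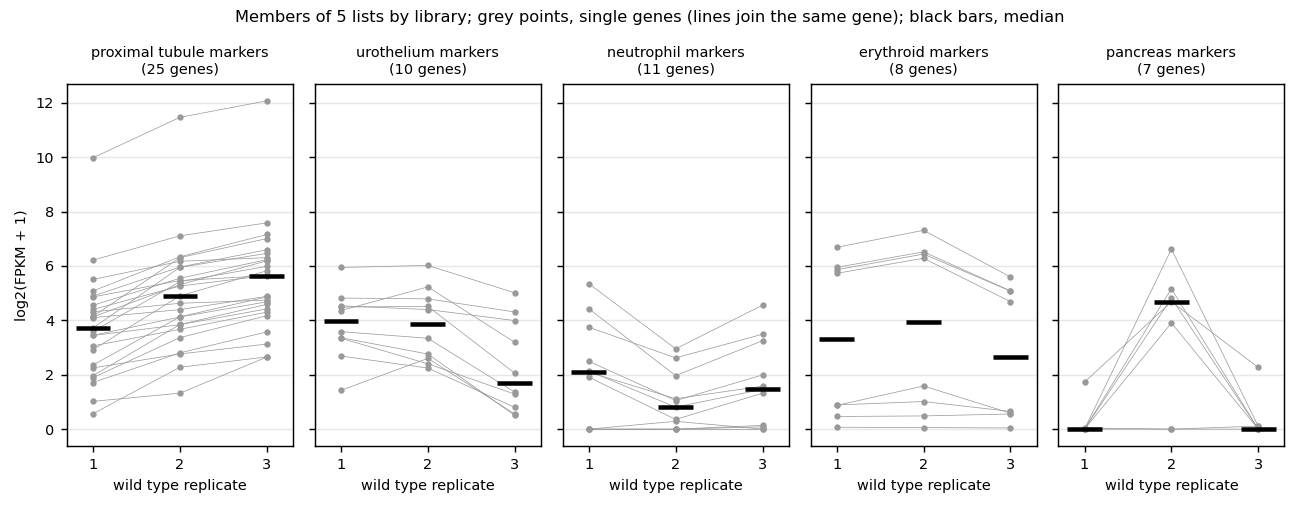
log2(FPKM + 1) of every member of 5 gene lists in wild type replicates 1, 2 and 3 (which have no order); grey points are genes, thin lines join the same gene and black bars are medians. By these medians, proximal tubule markers are lowest in replicate 1 and urothelium and erythroid markers lowest in replicate 3. Neutrophil medians are lowest in replicate 2, and the pancreas median is high in replicate 2 alone. Members of very low level, such as Prss1, Gcg and Ly6g, do not follow their list.

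Urothelium, the lining of the renal pelvis and ureter, gave the next pattern. All 10 of its markers were lowest in replicate 3, as were 48.3% of all genes whose mean reached 1 FPKM. This list too was chosen with earlier results of these data known. An SD above 1 was found for 6 of the 10, against 0.945% of those genes. The list median was 15.3, 14.6 and 2.37 FPKM in replicates 1, 2 and 3. The keratins Krt19 (60.5, 63.8 and 31.2 FPKM), Krt7 (27.2, 26.7 and 18.8 FPKM) and Krt5 (19.5, 36.5 and 8.13 FPKM) led the list, of which other epithelia make the first pair. The uroplakin Upk3a (chromosome 15, 85017141 to 85022547), a defining protein of the urothelial surface, was at 9.26, 5.78 and 0.42 FPKM (SD 1.505). Psca, a surface antigen of the same cells, was at 21.4, 21.8 and 3.16 FPKM.

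Erythroid genes were highest in replicate 2 and lowest in replicate 3 in all 5 members with a mean of at least 1 FPKM, an order that 17.8% of all genes had. The globins Hbb-bs (102, 158 and 47.3 FPKM), Hba-a1 (60.6, 90.6 and 32.9 FPKM) and Hba-a2 (57.1, 85.6 and 32.8 FPKM) led, of which Hba-a1 and Hba-a2 are near-identical copies with uncertain single values. Markers of other organs were low: the highest adrenal genes were Star at 1.89, 2.02 and 1.83 FPKM and Mc2r at 0.46 to 0.81 FPKM, and skeletal muscle genes reached at most 0.54 FPKM, with Ckm listed at 0 in all 3 libraries. Among liver genes Serpina1a was at 7.39, 16.3 and 16.6 FPKM and Apoa2 at 1.01, 1.04 and 1.82 FPKM, while Alb was at most 0.11 FPKM.

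**Figure D5:**
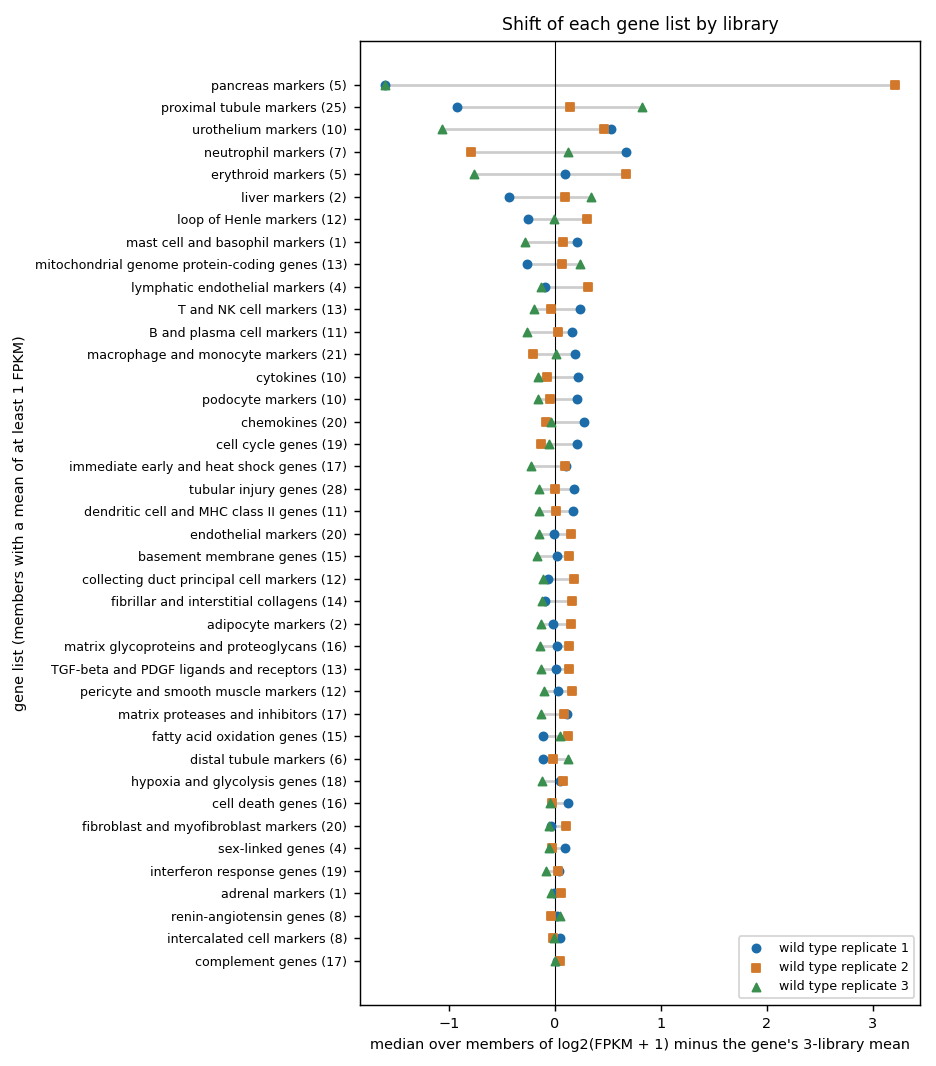
For each gene list, the median over its members with a mean of at least 1 FPKM (number in brackets) of log2(FPKM + 1) minus the gene's 3-library mean, 1 symbol per wild type library, ordered by the range between libraries. The range is 4.81 for pancreas, 1.74 for proximal tubule, 1.59 for urothelium, 1.46 for neutrophil and 1.43 for erythroid markers, and at most 0.5 for 33 of the 40 lists. The filter raises the pancreas range, because most of the pancreas members shown pass it through replicate 2 alone.

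Set side by side, 7 of 40 lists differed between libraries by more than 0.5 in their median shift, a limit set after the values were seen. The mast cell list (0.497, resting on 1 member) and the mitochondrial genome list (0.496) lay just under it. Over all 14707 genes the range of that shift was 0.07, with 0.04 for replicate 1, 0.004 for replicate 2 and -0.04 for replicate 3. Proximal tubule markers were at -0.92, 0.14 and 0.82, urothelium markers at 0.53, 0.46 and -1.06 and neutrophil markers at 0.67, -0.80 and 0.13 in replicates 1, 2 and 3. Erythroid markers were at 0.10, 0.67 and -0.77 and loop of Henle markers at -0.26, 0.30 and -0.01. The liver list rests on 2 members, and the pancreas list on 5. Of these 5, Ctrb1, Cela2a, Pnlip and Cpa1 reached a mean of 1 FPKM through replicate 2 alone. Prss1 and Gcg, which were not high there, were left out by that filter. The filter thus raised the pancreas range, which was smaller with no filter but still the largest of all lists. Fibroblast (range 0.15), interferon response (0.12), intercalated cell (0.07) and complement (0.05) lists had small ranges. A small range of the median does not mean that the members varied little: 16 of 17 complement genes and 14 of 20 fibroblast markers had an SD above the median of all genes, and complement genes were highest in replicate 1 in 8 cases and in replicate 2 in 7. For these 4 lists and for the collagens the highest or the lowest library changed with the scaling of the libraries, though replicate 2 stayed highest for fibroblast markers and collagens. Among the 139 genes with an SD above 1, 100 were protein-coding, 21 were immunoglobulin segments or chains, whose similar sequences make single values uncertain, and 9 were pseudogenes. Gene lists held 30 of the 139. The lowest library was replicate 1 alone for 60 of them (24.0% of all genes had this) and the highest was replicate 3 for 58 (21.7% of all genes), while 18 had the same lowest value in more than 1 library.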

How the data were processed

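mRNA was purified on oligo(dT) beads from obstructed kidneys and sequenced, per the labels' protocols. The authors deposited 1 table with an FPKM value for each gene and library, per the file headers, and its values carry 2 decimals. The submitters' processing notes name cutadapt 1.9, FastQC, HISAT2 2.0.4 and mm10, with no roles. Which program and annotation gave the FPKM values is unstated. Whole reads could not be recovered from low values: the strongest step score was 0.102, 0.125 and 0.088 in the 3 libraries, where perfect steps give 1 and scatter at a single step size about 0.026. Depth is therefore unknown and no counting interval was computed. A value of 0 can be a failed estimate and is called listed at 0. Sums over genes were 267394, 279294 and 285322 FPKM in replicates 1, 2 and 3.

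Only the 3 wild type columns were read, and 1 other column of per-sample values, of a knockout library, was not used. Spread is the SD of log2(FPKM + 1), pseudocount 1, over genes whose mean reached 1 FPKM, a scale that understates differences of low genes. List levels use all members in the table. Of 568 genes in 41 lists, 557 had a row. Members, lists and rules were chosen with earlier results of these data known. With 1 group there was no test. Named genes were the 30 highest, the 3 highest and the most variable of each list, the 20 most variable, the 10 steadiest of at least 50 FPKM, list genes at 0 in all libraries and 10 genes fixed by name. Others, such as Hnf4a, Slc4a4, Adgre1, Gpnmb, Vcam1, Sox9, Miox and Acsm2, were added after their values were seen. Some genes the rule names are not reported here. The spread calculation was tested on simulated data. Coordinates are GENCODE M21 (GRCm38, mm10), which held 33572 of the IDs, and promoters are RefSeq's. Pseudogene transcripts were matched to mitochondrial transcripts with blastn 2.17.0. Python 3.11.15, pandas 2.3.3 and numpy 2.4.6 were used. Alternatives were other pseudocounts, filters, scalings and leaving out each library.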

Additional observations from a re-analysis of the deposited data

How the results depend on the processing

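No paired analysis was possible because the description covers 1 group, and no knockout column was used. Raising the filter to a mean of 5 FPKM left 8538 genes, of which 76 had an SD above 1, against 139 of 14707. A pseudocount of 0.1 FPKM gave 269 such genes, 11 in place of 7 lists with a shift range above 0.5 and a lowest Pearson's r of 0.949. With no filter that r was 0.988. Lists with a shift range above 0.5 numbered 9 with equal FPKM totals, 8 with median-ratio scaling and 6 with no filter. The 10 highest genes held 12.8% of the total without mitochondrial genes and, in an alternative chosen after seeing the data, 8.34% without their nuclear copies as well. Leaving out 1 library at a time gave 14608 to 14802 genes, a share of the 10 highest of 15.5% to 17.0%, 112 to 163 genes with an SD above 1, a median SD of 0.073 to 0.099 and 21 to 24 lists with a median of at least 10 FPKM (23 with all libraries). Of the 20 most variable genes 0 were among the 20 widest without replicate 2, and 19 were without replicate 1 or without replicate 3. Without the 21 genes of replicate 2, also chosen after seeing the data, 118 genes had an SD above 1. By coefficient of variation 13 of the 20 were shared. Without replicate 1 the proximal tubule median was 38.8 FPKM and the neutrophil median 1.25 FPKM, without replicate 3 the proximal tubule median was 20.5 FPKM, and without replicate 2 the pancreas median was 0 in place of 8.22 FPKM. List medians moved by at most 1 SD under both scalings in all 41 lists. With members under 1 FPKM left out, 13 of 40 moved further, among them erythroid markers to 58.5 FPKM, dendritic cell genes to 14.7 FPKM, distal tubule markers to 8.43 FPKM and cytokines to 4.50 FPKM. The highest or lowest library of a list, or a shift range by over 1.5 times, changed for 7 of 40 lists with equal FPKM totals and for 13 of 40 with median-ratio scaling. The highest and lowest libraries of proximal tubule, loop of Henle, neutrophil and erythroid markers were the same under both scalings, a pseudocount of 0.1 FPKM and no filter, as was the highest of pancreas markers, whose lowest is shared by replicates 1 and 3, while the highest library of the urothelium list was replicate 2 with a pseudocount of 0.1 FPKM. Differences of low genes are limited by the rounding to 2 decimals and by the unknown depth.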

Other observations

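Gapdh, the glycolytic enzyme often used as a reference gene, was at 6.23, 5.72 and 9.68 FPKM in replicates 1, 2 and 3, while Aldoa, Ldha and Tpi1 of the same pathway had means between 87.9 and 131 FPKM. Several processed pseudogenes were far above typical genes, such as Gm9794 at 332, 313 and 327 FPKM and Rpl17-ps10 at 234, 158 and 232 FPKM. Rps3a2, a processed pseudogene, was at 4.36, 4.71 and 52.8 FPKM. How reads that match several copies were assigned is unstated, so levels of genes with many copies should be read with care.

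Outside the lists, several genes with an SD above 1 were lowest in replicate 1 and highest in replicate 3, chosen here after their values were seen. Cyp2a4 was at 1.51, 15.4 and 23.2 FPKM, Cyp2a5 at 1.56, 8.52 and 23.7 FPKM, Ces1f at 2.17, 13.2 and 23.6 FPKM and Ugt3a1 at 1.34, 8.61 and 16.4 FPKM. These encode enzymes of drug and steroid metabolism. Sprr2a1, a small proline-rich protein gene of epithelia with near-identical copies, was at 26.1, 30.5 and 4.78 FPKM and the gasdermin gene Gsdmc2 at 12.3, 10.6 and 1.45 FPKM, both lowest in replicate 3. Of the 139 genes with an SD above 1, 46 were lowest in replicate 1 and highest in replicate 3 (33.1%), against 13.3% of all genes, and 14 had the opposite order (10.1%), against 30.5%.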
